A study of Mus musculus with 6 samples.

Results

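The acrosome and sperm-egg fusion genes were chosen by name: 45 gene names for building the acrosome, for its contents, for binding and crossing the egg coat and for fusing with the egg, with the ADAM family left out. Of these names 40 matched a row of the deposited table of 44065 genes, and 39 passed the filter on low values described below. The data are bulk RNA-seq of ribosomal RNA-depleted testis RNA from male C57BL/6 mice that entered a 10-week exposure when 6 weeks old. The sedentary group (ST) and the control group (CT) have 3 libraries each, which the labels call biological replicates without saying whether each is 1 animal, so p-values measure the spread between these samples. How the mice were kept sedentary is not stated in the labels, no transgene or agent is named for either group, and a further group, CS, with compensating physical activity, was not analysed here. The series title places the comparison in the context of sperm DNA damage and testicular temperature. The question here was whether the transcripts that equip sperm for fertilization differed between the sedentary and control groups.

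The acrosome is a Golgi-derived vesicle that spreads over the nucleus of the spermatid, the haploid germ cell that becomes a sperm. It is anchored by a protein complex at the nuclear envelope and filled with proteases, hyaluronidases and matrix proteins. When a sperm meets the coats of the egg, the vesicle fuses with the plasma membrane, releases its contents and exposes proteins such as IZUMO1 that attach the sperm to the egg membrane. Most of these genes are transcribed in spermatocytes and spermatids, well before the proteins are used, because transcription stops as the sperm nucleus condenses.

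The deposited unit is FPKM, reads scaled by gene length and by a library total. The reads behind the values summed to between 34176662 and 38148228 per library in the sedentary testes and between 28495596 and 37654913 in the control testes. The library total used for scaling was not this sum. It was 0.953, 0.991 and 0.992 of the sum in sedentary replicates 1, 2 and 3. In control replicates 1, 2 and 3 it was 1.041, 0.999996 and 1.055 of the sum. A lower total gives a higher FPKM, so this scaling raises the sedentary values relative to the control values. The total changes every FPKM value of a library by the same factor. TPM scaling, given below, divides each value by the summed FPKM of its library, so this total cancels there. A fit with the summed reads as totals was not run, so the part of this total alone in the fold changes was not tested. The testis label was checked on marker genes: 10 of 10 spermatocyte, 10 of 10 round spermatid and 9 of 9 elongating spermatid markers in the table passed the filter, while 8 of 10 epididymis markers stayed under 0.5 FPKM in every library and Lcn8, Spag11a and Adam7 were listed at 0. The epididymis markers Wfdc10, at 26.1 to 57.9 FPKM, and Rnase10, at 1.67 to 3.34 FPKM, went the other way and passed the filter. Summed over the round spermatid markers, of which Acrv1 is itself one of the genes described here, the level was 737 to 865 FPKM in the sedentary testes and 745 to 855 FPKM in the control testes. Over the elongating spermatid markers it was 31221 to 33661 FPKM in the sedentary testes and 24271 to 28818 FPKM in the control testes, with no overlap between the groups. Voom called 2 of these 9 markers higher, Tnp2 and Prm2 (adjusted p = 0.0277 and 0.0389). All 10 Sertoli cell markers lay above 0 (median 0.29 on the log2 scale), and their summed level was 700 to 814 FPKM in the sedentary testes and 554 to 617 FPKM in the control testes. Voom called 2 of these 10 higher, Amhr2 and Cst9 (adjusted p = 0.0224 and 0.0460). Of 8 Leydig cell markers 7 lay below 0, with a median of -0.48 and a mean log2 level of 4.99 to 5.11 in the sedentary testes and 5.16 to 5.82 in the control testes, and Star was called lower by voom (adjusted p = 0.0148). The summed level of the Leydig cell markers overlapped, at 960 to 1386 FPKM in the sedentary testes and 1082 to 1532 FPKM in the control testes. Of 6 peritubular cell markers 5 lay below 0, with a median of -0.42 and a mean log2 level of 3.02 to 3.38 in the sedentary testes and 3.39 to 3.75 in the control testes. The summed level of the peritubular markers overlapped too, at 253 to 287 FPKM in the sedentary testes and 245 to 267 FPKM in the control testes. Limma's moderated test on log2(FPKM + 0.5), the main test below, called 0 of the spermatid, Sertoli, Leydig and peritubular markers. Its adjusted p was 0.207 for Tnp2, 0.208 for Prm2 and 0.199 for each of Amhr2, Cst9 and Star. Voom called 1.44% of all 19201 genes (0.318% higher and 1.12% lower). With the GC and length trends removed, limma called 0 of all genes. In whole testis, fewer cells of a type and less RNA per cell cannot be told apart, and the part of such shifts in the values below was not tested.

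No acrosome or fusion gene passed the test for a difference between sedentary and control testes. With limma's moderated test on log2(FPKM + 0.5), 0 of 39 tested genes passed a Benjamini-Hochberg adjusted p of 0.05 over all 19201 genes tested, where 0.0260% passed, and the adjusted p of the 39 lay between 0.217 and 0.971. On the recovered reads, limma's voom also called 0 of 39, against 1.44% of all genes (0.318% higher and 1.12% lower), with a lowest adjusted p of 0.0849 for Atp8b3. At an unadjusted p under 0.05 there were 4 genes higher (Atp8b3, Prss21, Ly6k and Acrbp) and 2 lower (Gopc and Eqtn) in the sedentary testes, or 15.4% of the 39, against 17.4% of all genes by limma (10.1% higher and 7.26% lower). By voom 7 of the 39 had an unadjusted p under 0.05, against 20.2% of all genes (10.7% higher and 9.58% lower).

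The differences were small in both directions. Of the 39 genes 20 had a log2 fold change above 0 and 19 below 0, with a median of 0.03, against 0.01 over all genes; under TPM scaling 26 lay below 0 and the median was -0.09, the same as that of all genes under that scaling. The median size of a difference, without its sign, was 0.14 on the log2 scale in the 39 genes and 0.14 in all genes. The 95% intervals of the single differences, not adjusted for their number, lay between -0.54 for Tmem95 and 0.57 for Acrbp, that is between 0.687-fold and 1.48-fold on the FPKM + 0.5 scale. Of the 39 intervals 33 held 0. All sedentary values lay above all control values in 8 genes and below them in 3 genes, together 28.2% of the 39, while 24.5% of all genes had such separate groups (13.7% with the sedentary values above and 10.8% with them below). That share is near the background and is no result about these genes.

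**Figure D1:**
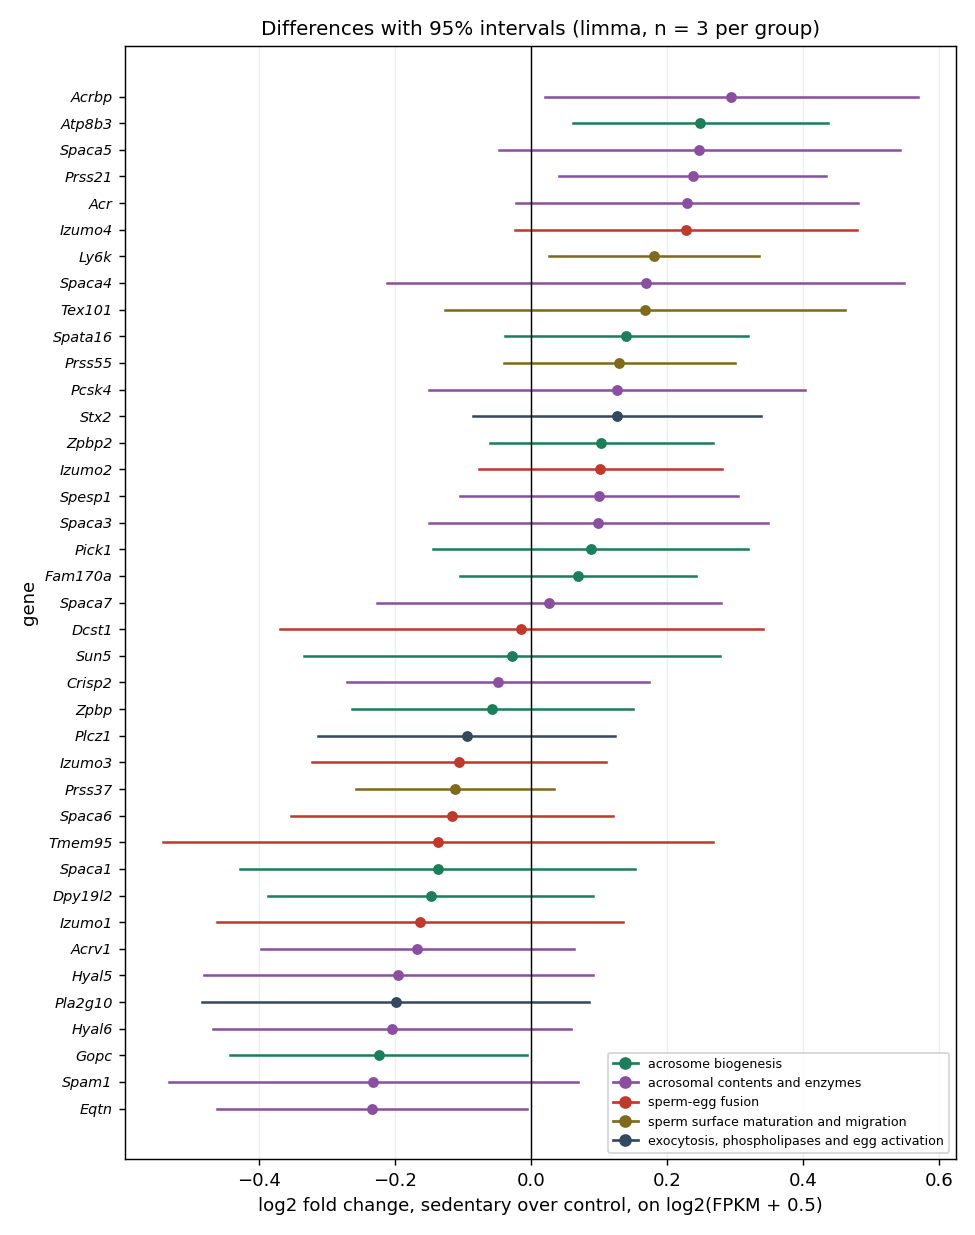
Log2 fold change of sedentary over control testes on log2(FPKM + 0.5) for 39 genes, as points with 95% intervals from limma (n = 3 per group), coloured by role. The points run between -0.23 for Eqtn and 0.29 for Acrbp, and 33 of the 39 intervals cross 0.

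Levels differed far more between genes than between groups. Mean FPKM over the 6 libraries spanned 236-fold in the 39 genes, with 10 genes at 100 FPKM or more, 26 between 10 and 100 FPKM, and 4 genes under 10 FPKM, among them Syt8. Crisp2 and Atp8b3 together held between 41.6% and 43.5% of the summed FPKM of the 40 genes in the sedentary libraries and between 40.7% and 43.9% in the control libraries. Ordered by mean level, 6 of the 39 pairs of neighbours had no overlap among their 6 libraries. These breaks came after Crisp2, Atp8b3, Zpbp, Spaca5, Gopc and Spaca6; every other gene overlapped the next one in the order. FPKM rests on the gene length in the deposited table, so an order between genes holds for those gene models.

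**Figure D2:**
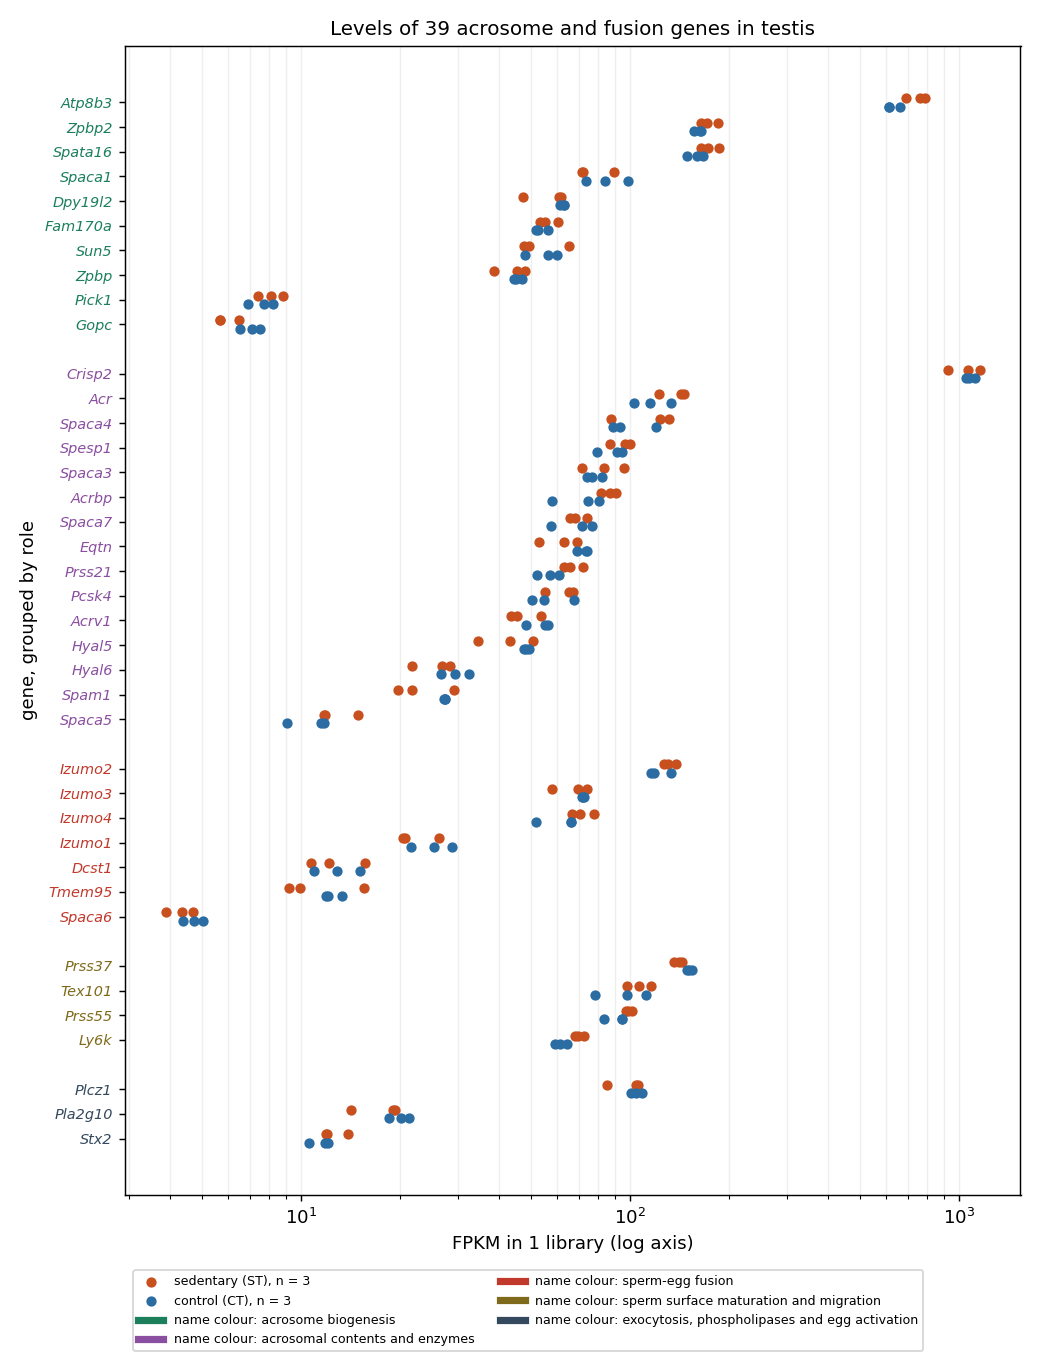
FPKM of 39 genes in each library on a log axis, grouped by role, with the 3 sedentary libraries as the upper row of points and the 3 control libraries as the lower row of each gene. Crisp2 and Atp8b3 stand above all others, and the groups of most genes overlap.

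Among the genes for building the acrosome, Atp8b3 and Gopc stood furthest apart between the groups. Atp8b3, a lipid flippase of the acrosomal membrane, had 791, 693 and 761 FPKM in the sedentary testes, against 612, 663 and 613 FPKM in the control testes. All sedentary libraries were above all controls, with a log2 fold change of 0.25 (SE 0.08) and adjusted p of 0.217 by limma and 0.0849 by voom. When 1 library was left out, the voom adjusted p ran from 0.0412, without control replicate 2, to 0.302. Without control replicate 2 voom called 1058 of all 19201 genes. Once each library's trend with GC content and length was taken out, the log2 fold change of Atp8b3 was 0.15. Gopc, a Golgi protein whose loss gives round-headed sperm without an acrosome in mice, had 6.49, 5.66 and 5.68 FPKM in the sedentary testes, against 7.48, 6.52 and 7.08 FPKM in the control testes. The groups were separate only narrowly, between sedentary replicate 1 and control replicate 2, with a log2 fold change of -0.22 (SE 0.10) and an adjusted p of 0.277 by limma. With the GC and length trends taken out, the log2 fold change of Gopc was -0.13. Pick1, which binds Gopc and is needed for the same step in mice, differed by 0.09 on the log2 scale (SE 0.10), and by -0.022 under TPM scaling.

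A pair of zona-binding genes lay on opposite sides of 0. Zpbp2 and Zpbp encode related proteins of the acrosomal matrix. Zpbp2 had 171, 185 and 164.5 FPKM in the sedentary testes, against 163, 164.4 and 156 FPKM in the control testes, so the groups were separate only by the gap between sedentary replicate 3 and control replicate 2, and its log2 fold change of 0.10 (SE 0.07) was -0.01 under TPM scaling. Zpbp had 47.9, 45.4 and 38.6 FPKM in the sedentary testes, against 47.1, 45.1 and 44.5 FPKM in the control testes. Its groups overlapped, and its log2 fold change of -0.06 (SE 0.09) was 0.07 with the GC and length trends taken out.

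The anchoring genes lay at middle levels. Dpy19l2, a nuclear envelope protein that holds the acrosome to the nucleus, had 60.9, 61.6 and 47.4 FPKM in the sedentary testes, against 63.0, 61.2 and 62.9 FPKM in the control testes. Sedentary replicate 3 was the lowest of the 6, and without it the log2 fold change of -0.15 (SE 0.10) was -0.03. Spaca1, an inner acrosomal membrane protein, had 89.3, 71.3 and 71.9 FPKM in the sedentary testes, against 84.1, 98.7 and 73.5 FPKM in the control testes, with a log2 fold change of -0.14 (SE 0.13) and overlapping groups. Spata16, mutated in some human globozoospermia (sperm without an acrosome), had 173, 187 and 164 FPKM in the sedentary testes, against 159, 167 and 149 FPKM in the control testes, with overlapping groups and a log2 fold change of 0.14 (SE 0.08). Sun5, which couples the sperm head to its tail, and Fam170a averaged 54.0 ± 9.83 and 56.3 ± 3.61 FPKM in the sedentary testes and 54.8 ± 6.08 and 53.6 ± 2.57 FPKM in the control testes (SD, n = 3 per group). Over all 10 tested genes of this role, 5 lay above 0 and 5 below 0, with a median of 0.02; under TPM scaling 8 lay below 0, with a median of -0.095.

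The acrosomal contents held both ends of the range of differences. Acrosin is made as proacrosin, which the product of Acrbp binds and keeps in the acrosomal matrix. Acrbp had 86.8, 81.5 and 90.9 FPKM in the sedentary testes, against 74.5, 80.6 and 57.9 FPKM in the control testes. The groups did not overlap, the log2 fold change was 0.29 (SE 0.12, adjusted p = 0.266 by limma and 0.117 by voom), and control replicate 3 was the lowest library. Without control replicate 3 the log2 fold change was 0.15, and without control replicate 2 it was 0.39 with a voom adjusted p of 0.0311. When 1 library was left out, the voom adjusted p of Acrbp reached up to 0.484. With the GC and length trends taken out, the log2 fold change of Acrbp was 0.19. Acr, the acrosin gene, had 146, 123 and 143 FPKM in the sedentary testes, against 115, 133 and 103 FPKM in the control testes. Its groups overlapped, control replicate 3 was again the lowest, and the log2 fold change was 0.23 (SE 0.11, adjusted p = 0.318 by limma). It was 0.13 with the GC and length trends taken out.

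Prss21, or testisin, a membrane-anchored serine protease, had 65.5, 62.9 and 72.1 FPKM in the sedentary testes, against 57.03, 60.9 and 52.0 FPKM in the control testes. Its groups were separate, with a log2 fold change of 0.24 (SE 0.09, adjusted p = 0.235 by limma), which was 0.15 with the GC and length trends taken out. Spaca5, one of the lysozyme-like acrosomal genes, lay at 14.9, 11.9 and 11.8 FPKM in the sedentary testes, against 11.7, 11.5 and 9.04 FPKM in the control testes. Its reads were few, with 192 in the lowest library, and its log2 fold change was 0.25 (SE 0.13), or 0.27 with the GC and length trends taken out. Spaca3, the other lysozyme-like gene of the set, was more abundant at 83.7 ± 12.5 FPKM in the sedentary testes and 77.6 ± 3.98 FPKM in the control testes (SD, n = 3), with overlapping groups. Its log2 fold change of 0.10 was -0.019 with the GC and length trends taken out and -0.016 under TPM scaling.

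On the lower side stood Eqtn, the hyaluronidases and Acrv1. Eqtn, which encodes equatorin of the acrosomal membrane, had 68.95, 62.9 and 53.0 FPKM in the sedentary testes, against 73.5, 74.0 and 69.04 FPKM in the control testes. Its groups were separate only narrowly, between sedentary replicate 1 and control replicate 3, and the log2 fold change was -0.23 (SE 0.10, adjusted p = 0.278 by limma). It was -0.13 with the GC and length trends taken out. Acrv1, a matrix protein used as a marker of acrosome formation, had 53.6, 45.4 and 43.4 FPKM in the sedentary testes, against 55.3, 56.4 and 48.1 FPKM in the control testes, with overlapping groups and a log2 fold change of -0.17 (SE 0.10).

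The 3 hyaluronidase genes lie side by side on chromosome 6 of the deposited table, within 163 kb from 22995791 to 23159195, in the order Hyal6, Spam1, Hyal5. They encode enzymes that digest the hyaluronan between the cells around the egg. Spam1 had 29.1, 21.8 and 19.7 FPKM in the sedentary testes, against 27.4, 27.4 and 27.2 FPKM in the control testes. Hyal5 had 50.6, 43.1 and 34.6 FPKM in the sedentary testes, against 48.4, 49.4 and 47.6 FPKM in the control testes. Hyal6 had 26.8, 28.3 and 21.7 FPKM in the sedentary testes, against 29.4, 26.6 and 32.4 FPKM in the control testes. In all 3 genes sedentary replicate 3 was the lowest library and the groups overlapped, and in Spam1 and Hyal5 sedentary replicate 1 was the highest. Their log2 fold changes of -0.23, -0.20 and -0.20 (SE 0.13, 0.12 and 0.12, in that gene order) kept their sign under TPM scaling and with the GC and length trends taken out, where they were -0.11, -0.08 and -0.06. As near relatives they may share reads, so the split among them is uncertain. Of the remaining contents, Crisp2, a cysteine-rich secretory protein of the acrosome and tail, had the highest level of all, with 1063, 1158 and 926 FPKM in the sedentary testes, against 1071, 1054 and 1117 FPKM in the control testes. Its groups overlapped, and the log2 fold change of -0.05 (SE 0.10) was 0.07 with the GC and length trends taken out and 0.04 without sedentary replicate 3. Spaca4, Spaca7, Spesp1 and Pcsk4, a proprotein convertase, had overlapping groups and log2 fold changes between 0.03 and 0.17. The sign turned with the GC and length trends taken out for Spaca4 (-0.0073) and Pcsk4 (-0.039), and under TPM scaling for Spaca7 (-0.089) and Spesp1 (-0.015).

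Of 7 tested fusion genes 2 lay above 0 and 5 below 0, with a median of -0.11, which was -0.026 with the GC and length trends taken out and -0.22 under TPM scaling. None had an unadjusted p under 0.05 by limma; 1 of 7 did by voom and 1 of 7 with those trends taken out. Izumo1, which binds the egg receptor Juno, had 26.2, 20.7 and 20.4 FPKM in the sedentary testes, against 25.4, 28.7 and 21.5 FPKM in the control testes. The groups overlapped and the log2 fold change was -0.16 (SE 0.13). With the GC and length trends taken out it was -0.30, the lowest of the 39, with an adjusted p of 0.324. Its family members Izumo2, Izumo3 and Izumo4 were more abundant than Izumo1. Izumo2 had 127, 138 and 131 FPKM in the sedentary testes, against 116, 134 and 119 FPKM in the control testes, with overlapping groups and a log2 fold change of 0.10 (SE 0.08) that was -0.01 under TPM scaling. Izumo4 averaged 71.6 ± 5.56 FPKM in the sedentary testes and 61.4 ± 8.26 FPKM in the control testes (SD, n = 3), with separate groups and an adjusted p of 0.322 by limma. Izumo3 averaged 67.1 ± 8.26 FPKM in the sedentary testes and 71.9 ± 0.358 FPKM in the control testes (SD, n = 3), with overlapping groups.

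Spaca6 and Tmem95, both needed on mouse sperm for fusion, were among the least abundant. Spaca6 had 4.71, 3.88 and 4.34 FPKM in the sedentary testes, against 4.73, 5.03 and 4.38 FPKM in the control testes. Tmem95 had 15.6, 9.16 and 9.89 FPKM in the sedentary testes, against 11.9, 13.3 and 12.0 FPKM in the control testes. Sedentary replicate 1 was the highest of the 6 libraries for Tmem95 and the other sedentary libraries were the lowest, so its spread in the sedentary group exceeded the difference between the groups, with a log2 fold change of -0.14 (SE 0.18). Its lowest library held 178 reads.

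Dcst1, a membrane protein needed for fusion in mice, had 15.7, 10.8 and 12.2 FPKM in the sedentary testes, against 12.9, 15.1 and 10.9 FPKM in the control testes, with a log2 fold change of -0.01 (SE 0.16). Its partner in fusion, Dcst2, had no row of that name. An unnamed row that the deposited table describes by its likeness to human DCST2 begins 629 bases beyond Dcst1 on chromosome 3, from 92963219 to 92968886 on the other strand. It had 61.2, 45.7 and 48.9 FPKM in the sedentary testes, against 52.9, 61.9 and 45.6 FPKM in the control testes. In both rows sedentary replicate 1 and control replicate 2 were the highest libraries, and sedentary replicate 2 and control replicate 3 the lowest, and neither row's groups separated. The same order of libraries stood in 226 of all 19201 genes tested (1.18%), Sun5 among them, so it is not particular to the pair. The promoter windows of the pair are shown because they overlap: in RefSeq (GRCm38.p6) the starts of Dcst1 and Dcst2 lie 66 bases apart and point away from each other, and each window runs from 250 bases before a start to 50 bases after it. The capitals mark the 165 bases that both windows hold, which one line gives as the reverse complement of the other. The windows are chr3:89365204-89365503 on the minus strand for Dcst1 and chr3:89365069-89365368 on the plus strand for Dcst2.
Dcst1: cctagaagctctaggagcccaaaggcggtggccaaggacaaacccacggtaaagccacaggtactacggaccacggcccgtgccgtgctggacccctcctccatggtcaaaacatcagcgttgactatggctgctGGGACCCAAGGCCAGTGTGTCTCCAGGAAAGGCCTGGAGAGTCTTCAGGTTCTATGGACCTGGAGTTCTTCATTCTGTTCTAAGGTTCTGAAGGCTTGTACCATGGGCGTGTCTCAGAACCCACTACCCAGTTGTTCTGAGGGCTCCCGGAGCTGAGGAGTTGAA
Dcst2: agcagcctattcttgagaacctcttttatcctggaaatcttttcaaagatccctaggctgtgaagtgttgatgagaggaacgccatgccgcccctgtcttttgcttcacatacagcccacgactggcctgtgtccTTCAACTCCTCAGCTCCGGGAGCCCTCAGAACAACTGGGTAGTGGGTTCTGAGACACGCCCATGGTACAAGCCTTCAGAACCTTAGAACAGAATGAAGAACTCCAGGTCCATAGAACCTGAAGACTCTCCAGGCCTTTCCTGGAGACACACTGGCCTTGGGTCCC

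Germ cells that have passed meiosis use the transcription factor CREM, which binds the cyclic AMP response element, so the windows of these genes were searched for the full element TGACGTCA and for its core TGACG, which the full element contains, on both strands. Of the 40 genes 32 had at least 1 window in the RefSeq table. The full element was in 1 of the 32 genes, Izumo1, against 2.03% of all 27025 genes with a window. The core was in 11 of the 32 genes (34.4%), against 23.0% of all genes: Acrbp, Dpy19l2, Gopc, Izumo1, Pick1, Pla2g10, Spaca1, Spaca3, Spesp1, Tmem95 and Zpbp2. These 11 genes stood on both sides of 0, with Acrbp at 0.29 and Gopc at -0.22. Izumo1 is shown as the only one of the 32 with the full element and Acrbp as the gene with the highest fold change; the capitals mark the full element in Izumo1 (chr7:45621561-45621860, plus strand) and the core in Acrbp (chr6:125049677-125049976, plus strand). A match of letters is a description and not a binding site.
Izumo1: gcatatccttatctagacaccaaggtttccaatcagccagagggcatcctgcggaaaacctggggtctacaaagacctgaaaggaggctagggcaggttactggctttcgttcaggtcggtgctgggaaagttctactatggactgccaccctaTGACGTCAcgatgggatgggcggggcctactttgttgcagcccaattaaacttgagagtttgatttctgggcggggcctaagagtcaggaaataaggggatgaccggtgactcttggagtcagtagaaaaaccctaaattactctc
Acrbp: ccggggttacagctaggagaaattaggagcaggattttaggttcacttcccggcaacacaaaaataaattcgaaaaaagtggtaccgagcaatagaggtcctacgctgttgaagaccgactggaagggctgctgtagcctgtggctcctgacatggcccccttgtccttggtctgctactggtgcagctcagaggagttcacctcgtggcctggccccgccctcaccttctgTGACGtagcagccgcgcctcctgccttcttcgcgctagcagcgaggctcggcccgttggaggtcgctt

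Of the other names without a row of their own, Fimp and Sof1, further genes needed for fusion in mice, and Hrb, needed for acrosome assembly in mice, were found under other names. The deposited descriptions give 4930451I11Rik as Fimp and 1700034O15Rik as LLCFC1, the protein also called SOF1, and the RefSeq synonyms give Hrb as Agfg1; Equatorin is the product of Eqtn, already counted. 1700034O15Rik had 304, 286 and 329 FPKM in the sedentary testes, against 269.7, 318 and 266 FPKM in the control testes. At those levels it was the most abundant of the fusion genes, with overlapping groups and a log2 fold change of 0.11 (SE 0.09) that was -0.0069 under TPM scaling. 4930451I11Rik averaged 50.3 ± 2.96 FPKM in the sedentary testes and 45.1 ± 4.17 FPKM in the control testes, and Agfg1 24.7 ± 1.14 and 24.4 ± 0.617 FPKM (SD, n = 3 per group). Both had overlapping groups, with log2 fold changes of 0.16 (SE 0.09) and 0.02 (SE 0.07), of which that of Agfg1 was -0.094 under TPM scaling. None of these rows, nor the row like DCST2, passed the test, with adjusted p between 0.376 and 0.902 by limma.

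Tex101, Ly6k, Prss37 and Prss55 are needed in mice for the maturation of ADAM3 and for the passage of sperm into the oviduct. Ly6k had 67.8, 69.5 and 72.3 FPKM in the sedentary testes, against 61.4, 64.3 and 59.2 FPKM in the control testes. Its groups were separate, with a log2 fold change of 0.18 (SE 0.07, adjusted p = 0.243 by limma), which was 0.07 with the GC and length trends taken out. Prss37 had 144, 140.4 and 136 FPKM in the sedentary testes, against 151, 155 and 149 FPKM in the control testes. Its groups were separate in the other direction, with a log2 fold change of -0.11 (SE 0.06, adjusted p = 0.387 by limma). Prss55 averaged 99.0 ± 1.90 FPKM in the sedentary testes and 90.6 ± 6.50 FPKM in the control testes (SD, n = 3) with separate groups, and Tex101 had overlapping groups and a log2 fold change of 0.17 (SE 0.13).

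For exocytosis and egg activation, Plcz1, the phospholipase that starts the calcium waves of the fertilized egg, had 106, 104 and 85.1 FPKM in the sedentary testes, against 105, 101 and 109 FPKM in the control testes. Sedentary replicate 3 was the lowest library, and the log2 fold change of -0.09 (SE 0.10) was 0.0066 without it. Pla2g10, a secreted phospholipase of the acrosome, averaged 17.5 ± 2.89 FPKM in the sedentary testes and 19.97 ± 1.42 FPKM in the control testes, and Stx2, a syntaxin of the vesicle fusion machinery, 12.6 ± 1.10 and 11.5 ± 0.800 FPKM (SD, n = 3 per group), with overlapping groups in both. Syt8, a synaptotagmin, was the only one of the 40 genes not to pass the filter. It had 2 reads in sedentary replicate 2 and 0 reads in every other library, so no fold change was formed.

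The direction of the differences followed the base composition of the transcripts. GC content, taken from the longest GENCODE M21 transcript of each gene, ran from 38.6% in Hyal6 to 61.1% in Pcsk4, and all 39 genes had a value. Of the 13 genes with the lowest GC content, up to 45.3%, 12 had a log2 fold change below 0, with a median of -0.15. Of the 13 with the highest, from 52.7%, 10 lay above 0, with a median of 0.13. Across the 39 genes the log2 fold change and GC content had a Pearson r of 0.61 and a Spearman rho of 0.62, given as a description across genes that share 6 libraries and are not independent. The same relation ran through the whole table, with r of 0.43 over 14504 tested genes with a GC value and 0.61 over the 7613 of them at or above the lowest mean level of the 39, so it is not particular to these genes. After each library's trend with GC content and length was removed, r was 0.05 and rho 0.15 in the 39 genes. The removal is fitted over all 14504 genes and takes out such a relation among them by construction. The median size of a difference in the 39 genes was then 0.08 on the log2 scale, and the range of log2 fold changes ran from -0.30 for Izumo1 to 0.27 for Spaca5. In that fit 0 of 39 genes passed, with a lowest adjusted p of 0.294, and 4 of 39 (10.3%) had an unadjusted p under 0.05 by limma, against 14.9% of all 14504 genes in that fit.

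**Figure D3:**
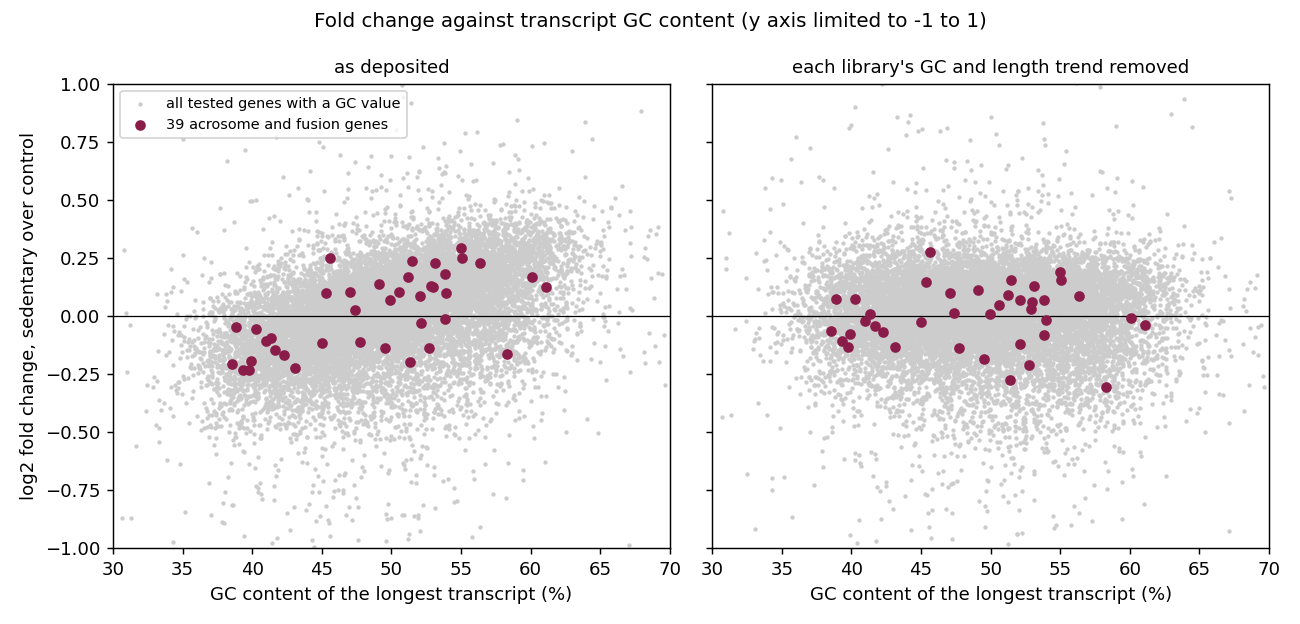
Log2 fold change of sedentary over control testes against transcript GC content in percent, for all tested genes with a GC value in grey (fold changes beyond the axis limits not drawn) and 39 acrosome and fusion genes in colour, before (left) and after (right) removal of each library's trend. The coloured points climb with GC content on the left (r = 0.61). On the right r is 0.05, where the removal takes out such a relation over all genes by construction.

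Single libraries stood out in this pattern. Among the 13 genes of lowest GC content, sedentary replicate 3 was the lowest of the 6 libraries in 10, with a median deviation from the gene's mean of -0.25 on the log2 scale. Control replicate 3 was the lowest library in 8 of the 13 genes of middle GC content and in 6 of the 13 of highest GC content, where its median deviation was -0.17. Sedentary replicate 1 was the highest library in 13 of the 39 genes and the lowest in 0. After the trends were removed, the median deviation of the low-GC genes in sedentary replicate 3 was -0.11. The spread of FPKM between replicates, as the median coefficient of variation over the 39 genes, was 10.2% in the sedentary testes and 7.09% in the control testes.

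**Figure D4:**
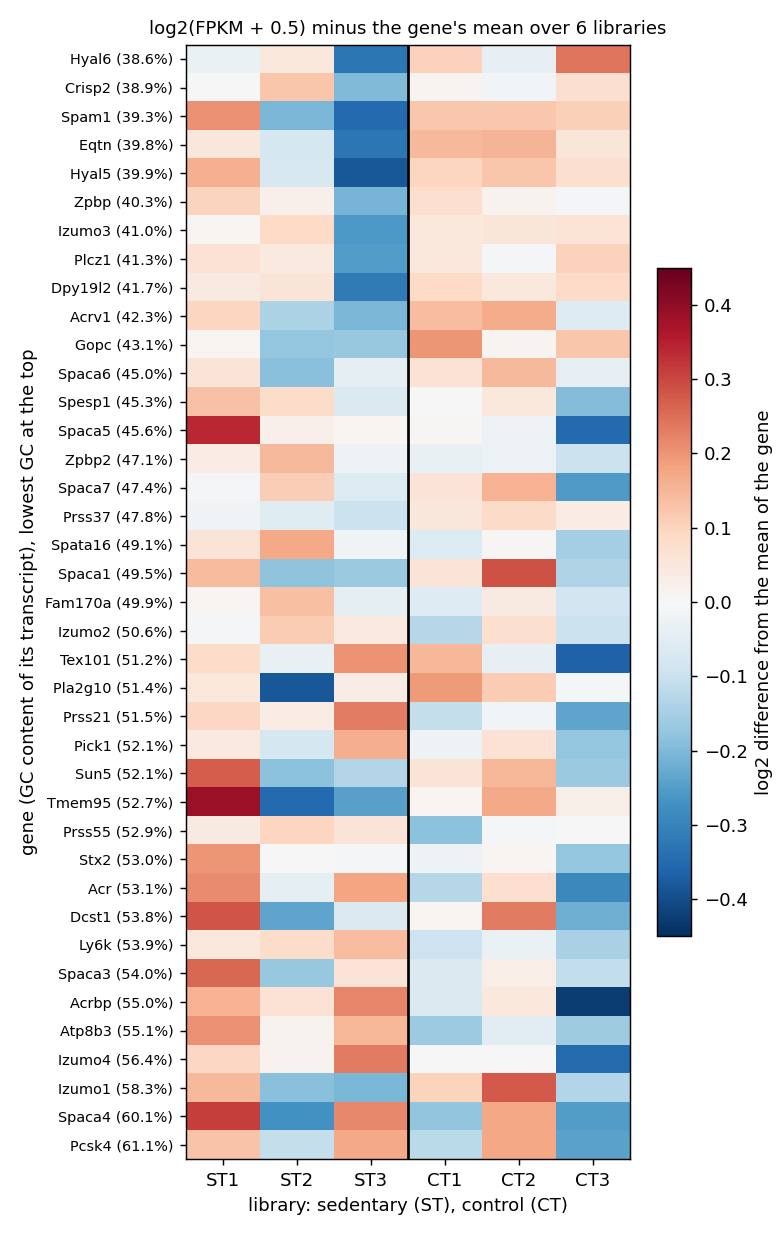
Difference of log2(FPKM + 0.5) from each gene's mean over 6 libraries, for 39 genes ordered by transcript GC content (percent in brackets), with sedentary libraries left of the line and control libraries right of it. Sedentary replicate 3 is blue (low) in the upper, GC-poor rows, and control replicate 3 is blue in most lower rows.

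Reads of a gene and of a partner on the opposite strand cannot be told apart where counting by strand is not stated. Of the 40 genes 14 overlap another row of the table, and 5 overlap a row with a mean of at least 10 FPKM. These are Dpy19l2 with Cypt4 (427 FPKM), Plcz1 with Capza3 (129 FPKM), Prss55 with Prss51, Zpbp with an unnamed coding gene, and Spaca4 with Fam83e, all on opposite strands, so their values are uncertain to that extent.

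Other genes of acrosome formation, contents, zona binding, exocytosis, sperm surface maturation and fusion, 101 names from a list drawn up beside the 45, gave the same count of calls. Of these 95 were in the table, 87 were tested and 0 passed, higher or lower, by limma or by voom. At an unadjusted p under 0.05 there were 17 genes higher and 3 lower by limma, or 23.0%, against 17.4% of all genes. Those higher made up 19.5%, against 10.1% of all genes, and those lower 3.45%, against 7.26%. By voom 27 genes (31.0%) had an unadjusted p under 0.05, against 20.2% of all genes. With the GC and length trends taken out, 12 of the 87 had an unadjusted p under 0.05 by limma. In that fit 14.9% of all 14504 genes did, with both directions counted together in each share. The shares of genes higher and of genes lower were not set against all genes in that fit. The part of GC content and length in the directional shares was thus not tested. The median log2 fold change was 0.04, against 0.01 over all genes. The genes with the lowest p on the higher side were Atg7, an autophagy factor needed for acrosome formation in mice, and Arsa, a sulfatase. Atg7 averaged 13.5 ± 0.870 FPKM in the sedentary testes and 10.8 ± 0.573 FPKM in the control testes, and Arsa 62.0 ± 2.36 and 51.2 ± 3.76 FPKM (SD, n = 3 per group), with adjusted p of 0.205 and 0.207 by limma. On the lower side were Glb1, a galactosidase, at 5.82 ± 0.255 FPKM in the sedentary testes and 7.16 ± 0.887 FPKM in the control testes, and Cd46, a membrane protein of the acrosome, at 1.47 ± 0.274 and 1.99 ± 0.112 FPKM (SD, n = 3 per group), with adjusted p of 0.247 and 0.251 by limma.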

How the data were processed

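A single table was deposited, holding FPKM for 44065 genes of 6 libraries beside each gene's length and position. HISAT2, StringTie and DESeq2, and the builds mm10 and mm39, are named per the submitters' processing notes, with no role or version. Identifiers follow a C57BL/6NJ annotation, and on all 20 chromosomes compared the table's genes run past the last GRCm38 gene, so its coordinates are printed as deposited, with the build open.

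Multiplying FPKM by gene length gave whole numbers of a unit constant within a library (100% of values, tolerance 0.001), from which reads were rebuilt; low read numbers were even in 56.2% to 59.0% of cases. Genes reaching 0.5 FPKM in 3 or more of the 6 libraries entered limma 3.58.1 (R 4.3.3), with a trended prior on log2(FPKM + 0.5), two-sided, adjusted by Benjamini-Hochberg over all 19201 genes; a fold change on that scale understates that of low genes. As an alternative, voom in limma was run on the rebuilt reads with library totals as deposited. It thus shares the library scaling of FPKM and is no check on that scaling. GC and length trends were removed per library with splines of 5 degrees of freedom each. The tests were tested on simulated data. Other settings are given at the end.

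The genes and lists were chosen with earlier results of these data known, so lists are described by counts and medians and not tested. Of the 40 genes, 24 are named by a rule: the 4 lowest p in each direction, the 6 highest levels, the highest of each role, a fixed panel and any below the filter; the others are named to account for every gene. Other pathway genes are named by the 2 lowest p in each direction. Promoter windows are from RefSeq.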

Additional observations from a re-analysis of the deposited data

How the results depend on the processing

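In each of the 22 other settings tried, the 39 genes had 0 calls, except without control replicate 2 by voom. There Atp8b3 and Acrbp were called, 2 of 39, beside 1058 of all 19201 genes. Leaving out 1 library thus gave 0 to 2 calls among the 39, and the cause was not tested. The median of the 39 was -0.089 with TPM scaling, which moved the median of all genes by -0.11, and ran from -0.025 to 0.11 when 1 library was left out. Over all genes there were 277 calls by voom, 1 without a filter, 3 at a filter of 1 FPKM and 0 with the GC and length trends taken out. Leaving out 1 library gave 0 to 2 calls on FPKM. By voom it gave 50, 779 and 22 without sedentary replicate 1, 2 and 3, and 76, 1058 and 42 without control replicate 1, 2 and 3. In the 87 other pathway genes the median was -0.070 with TPM scaling. Voom called 5 of the 87 without sedentary replicate 2, beside 779 of all 19201 genes. It called 8 of the 87 without control replicate 2, beside 1058 of all 19201 genes, and 0 when leaving out any other library. Alternatives turned the sign of 15 of the 39 genes and of 3 rows matched to other names, and none of these was called in any fit. With TPM scaling Zpbp2 stood at -0.012, Izumo2 at -0.014, Spesp1 at -0.015, Spaca3 at -0.016, Spaca7 at -0.089, Fam170a at -0.046, Pick1 at -0.022, 1700034O15Rik at -0.0069 and Agfg1 at -0.094. With the GC and length trends taken out, Crisp2, Plcz1 and Zpbp stood at 0.072, 0.0094 and 0.072, and Spaca4, Spaca3 and Pcsk4 at -0.0073, -0.019 and -0.039, and the same values held with the replicate block. Leaving out 1 library gave, on FPKM, Crisp2 -0.12 to 0.038, Plcz1 -0.15 to 0.0066, Zpbp -0.12 to 0.033, Dcst1 -0.16 to 0.10, Tmem95 -0.36 to 0.0030, Spaca3 -0.0066 to 0.21, Spaca7 -0.094 to 0.11, Sun5 -0.17 to 0.057, the row like DCST2 -0.16 to 0.069 and Agfg1 -0.016 to 0.042. By voom, without sedentary replicate 3, Crisp2 stood at 0.038, Plcz1 at 0.0062, Zpbp at 0.033, Dcst1 at 0.013 and Sun5 at 0.028. By voom without control replicate 2, Dcst1 stood at 0.097, Sun5 at 0.036 and the row like DCST2 at 0.066. By voom without sedentary replicate 2, Dcst1 stood at 0.11, Tmem95 at 0.0061, Spaca7 at -0.021, Sun5 at 0.058 and the row like DCST2 at 0.048. By voom without sedentary replicate 1, Spaca3 stood at -0.0069 and Agfg1 at -0.017, and without control replicate 3 Spaca7 stood at -0.092. Among the named pathway genes, Atg7 was called by voom without control replicate 2 or sedentary replicate 2, and Cd46 without sedentary replicate 2.

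With the replicate number as a block, 0 of the 39 genes, 0 pathway genes and 0 of all genes passed, with those trends left in or taken out. No sign of a pairing by number was seen. Same-numbered libraries' deviations from their group means had correlations of -0.07, -0.09 and -0.03, and no library correlated best with its own number. With 3 libraries per group, these correlations cannot exclude a pairing. A quasi-likelihood count test was planned and not run, because the deposited values are FPKM. The fit on genes with a GC value before removal was chosen after the data were seen. With 3 replicates per group the 95% intervals of the 39 genes reach 0.687-fold and 1.48-fold, so differences within these bounds may have been missed.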
